A study of Mus musculus with 6 samples.

Results

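Imprinted genes are read in part or wholly from 1 parental chromosome, and their levels were examined here in preosteoblasts with and without Tmem161a. The genes came from a list of 46 known mouse imprinted genes, matched by symbol to the rows of the deposited array table. Of these, 43 were analysed, each on 1 row of the 19571 rows that carry a gene symbol, and they belong to 17 imprinted clusters or single imprinted loci. Snrpn, Rtl1 and Zrsr1 were not analysed here. The list was drawn up with the results of this comparison known, in particular with the differences between Tmem161a-KO and WT arrays, so the values below describe these genes and none of their counts tests the list.

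The knockout cells were 1 Tmem161a-KO line, made from MC3T3-e1 cells with CRISPR/Cas9 deletions in an exon of Tmem161a and grown out by limited dilution, and the cells compared with them were intact MC3T3-e1 cells (WT). MC3T3-e1 is a preosteoblast line from mouse calvaria, and neither group is described as having received a treatment before RNA extraction. RNA from 3 samples of each group was copied into cRNA, which was put on Clariom S arrays of the mouse transcriptome. On these arrays a gene is covered by a set of short probes. The labels do not say whether these were separate cultures, and the study's general mention of independent experiments is not tied to the arrays, so the tests measure the spread between these samples, which may be technical. With 1 KO line, an effect of Tmem161a and a property of that line cannot be told apart.

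In genomic imprinting, DNA methylation laid down in the egg or the sperm at an imprinting control region marks 1 parental copy of a gene cluster, and the mark is kept in body cells after fertilization. The marked and unmarked copies are then read differently, through promoters that methylation silences, through insulators, or through long non-coding RNAs that silence neighbouring genes in cis. Many imprinted genes act on growth, adipose and mesenchymal differentiation, placenta or brain, and several are imprinted only in some tissues. The arrays measure the RNA of both alleles together, so a level says nothing about which allele was read, and methylation was not measured. Whether a gene is grouped below as paternally or maternally expressed is background knowledge of the mouse, not a result of these arrays.

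The promoters of 4 genes on which the results turn are shown here, because the methylation of an imprint sits on CpG dinucleotides. They are Ndn and Plagl1, which had the largest differences, Magel2, which lies next to Ndn and was not called, and the non-coding RNA Kcnq1ot1. Each window runs from 250 bases before to 50 bases after the RefSeq start site in GRCm38.p6, 5′ to 3′ along the gene, with every CpG in capitals. The windows are chr7:62348027-62348326 on the plus strand for Ndn, chr7:62376729-62377028 on the plus strand for Magel2, chr10:13090582-13090881 on the plus strand for Plagl1, and chr7:143296498-143296797 on the minus strand for Kcnq1ot1.
Ndn: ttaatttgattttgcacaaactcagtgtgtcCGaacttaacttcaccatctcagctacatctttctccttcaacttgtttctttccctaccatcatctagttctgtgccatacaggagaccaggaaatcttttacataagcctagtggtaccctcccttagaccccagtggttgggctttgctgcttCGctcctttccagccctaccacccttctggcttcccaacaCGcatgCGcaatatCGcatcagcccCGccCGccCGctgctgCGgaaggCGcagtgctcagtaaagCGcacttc
Magel2: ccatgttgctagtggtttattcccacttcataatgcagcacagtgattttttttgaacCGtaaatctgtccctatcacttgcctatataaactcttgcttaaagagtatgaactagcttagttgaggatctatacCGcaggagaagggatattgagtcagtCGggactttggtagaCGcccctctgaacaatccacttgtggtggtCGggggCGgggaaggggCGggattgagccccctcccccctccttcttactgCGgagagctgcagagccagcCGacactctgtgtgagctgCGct
Plagl1: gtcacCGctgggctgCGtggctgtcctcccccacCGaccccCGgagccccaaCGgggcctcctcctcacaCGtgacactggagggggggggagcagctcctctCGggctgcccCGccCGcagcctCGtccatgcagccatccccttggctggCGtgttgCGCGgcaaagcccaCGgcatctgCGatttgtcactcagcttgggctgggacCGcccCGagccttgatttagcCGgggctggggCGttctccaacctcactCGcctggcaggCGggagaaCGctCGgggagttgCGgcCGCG
Kcnq1ot1: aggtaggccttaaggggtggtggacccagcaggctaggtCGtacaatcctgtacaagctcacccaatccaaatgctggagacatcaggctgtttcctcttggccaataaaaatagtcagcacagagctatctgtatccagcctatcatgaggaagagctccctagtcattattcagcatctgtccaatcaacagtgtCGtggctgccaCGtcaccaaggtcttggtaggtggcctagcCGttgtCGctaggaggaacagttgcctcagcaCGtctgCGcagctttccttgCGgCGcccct

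The window of Plagl1 held 26 CpGs, a number that 16.9% of all 32851 RefSeq mouse windows of this length reach. The neighbouring genes Ndn and Magel2, both single-exon genes of the Prader-Willi/Angelman region, held 11 and 10 CpGs, which 41.4% and 43.5% of all windows reach. Kcnq1ot1, the long non-coding RNA of the cluster on the distal end of chromosome 7, held 9 CpGs, which 45.8% of windows reach. A window was found for 35 of the 43 genes, and 25 genes had exactly 1. Among those 25 the median was 17 CpGs, with a range of 2 to 29, against a median of 7 over all windows. The letters TGCCGC, searched on both strands and holding a CpG themselves, are the core that the imprint-keeping factor ZFP57 reads when methylated. They stood in 6 of the 25 windows (24.0%), against 11.6% of all windows, and the window of Plagl1 held 1 of them. These are counts of letters, not adjusted for the higher CpG number of the 25 windows, and a match is not a binding site.

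The values are intensities normalized by the authors, compared here as log2 intensities with limma, a linear model that shares information on spread across rows. The test was passed where the adjusted p was under 0.05 (Benjamini-Hochberg over all 19571 rows), and each difference is KO minus WT on the log2 scale with its standard error (SE). Over all rows 1122 genes were higher and 817 lower, so that 57.9% of the called genes were higher. The counts were 1619 and 614 (72.5% higher) when each array was centred on its median. After quantile normalization they were 893 and 823 (52% higher). Median intensities were 204 to 208 on the KO arrays and 214 to 215 on the WT arrays. Arrays of the same group correlated across rows at r = 0.9961 to 0.9967 and arrays of different groups at r = 0.9906 to 0.9927. The 95th percentile of the 1091 olfactory receptor rows, an intensity of 100.1, served as the background level. Differences of genes near it may understate a difference in RNA. Tmem161a itself had intensities of 936, 1001 and 963 on the KO arrays and 1155, 1061 and 1229 on the WT arrays, a difference of -0.25 (SE 0.11) that did not pass the test, so the RNA level does not check the knockout. Of the 11 osteoblast markers analysed, 7 lay above background, with the collagen genes Col1a1 and Col1a2 and the matrix gene Sparc among them, whereas Alpl, Ibsp, Dmp1 and Phex lay at or below it in both groups.

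Of the 43 imprinted genes, 6 were higher in Tmem161a-KO cells (Ndn, Plagl1, Ddc, Kcnq1ot1, Herc3 and Grb10), 3 were lower (Atp10a, Rasgrf1 and Kcnk9) and 34 did not pass the test. This is 20.9% called, against 9.91% of all rows tested, and since the list was chosen with these calls known, nothing is read from that gap. The higher genes were 14% of the list, against 5.73% of all rows, and the lower genes 6.98%, against 4.17%. In 18 genes (41.9%) the 3 KO arrays and the 3 WT arrays did not overlap, as in 28.9% of all rows. The median difference was -0.02, against -0.01 over all rows, and it was 0.04, against 0.05 over all rows, with the arrays centred on their medians. Above background in both groups lay 27 genes, in 1 group only Slc22a18, and 15 genes lay at or below background in both. All 6 genes that rose (22.2% of the 27, against 8.57% of the 12656 rows with a mean above background) and 2 of the 3 that fell (7.41%, against 5.68%) were among the 27, together 29.6% against 14.2%. In the methods' t-test without adjustment 14 of the 43 passed, against 20% of all rows. Of the genes, 19 lie on chromosome 7, where 7.18% of rows were called, and 10 on chromosome 6, where 5.71% were higher and 4.76% lower. None lies on chromosome 14, where 35.1% of rows were called. The most extreme differences of the list were 2.81 for Ndn and -0.67 for Atp10a.

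**Figure D1:**
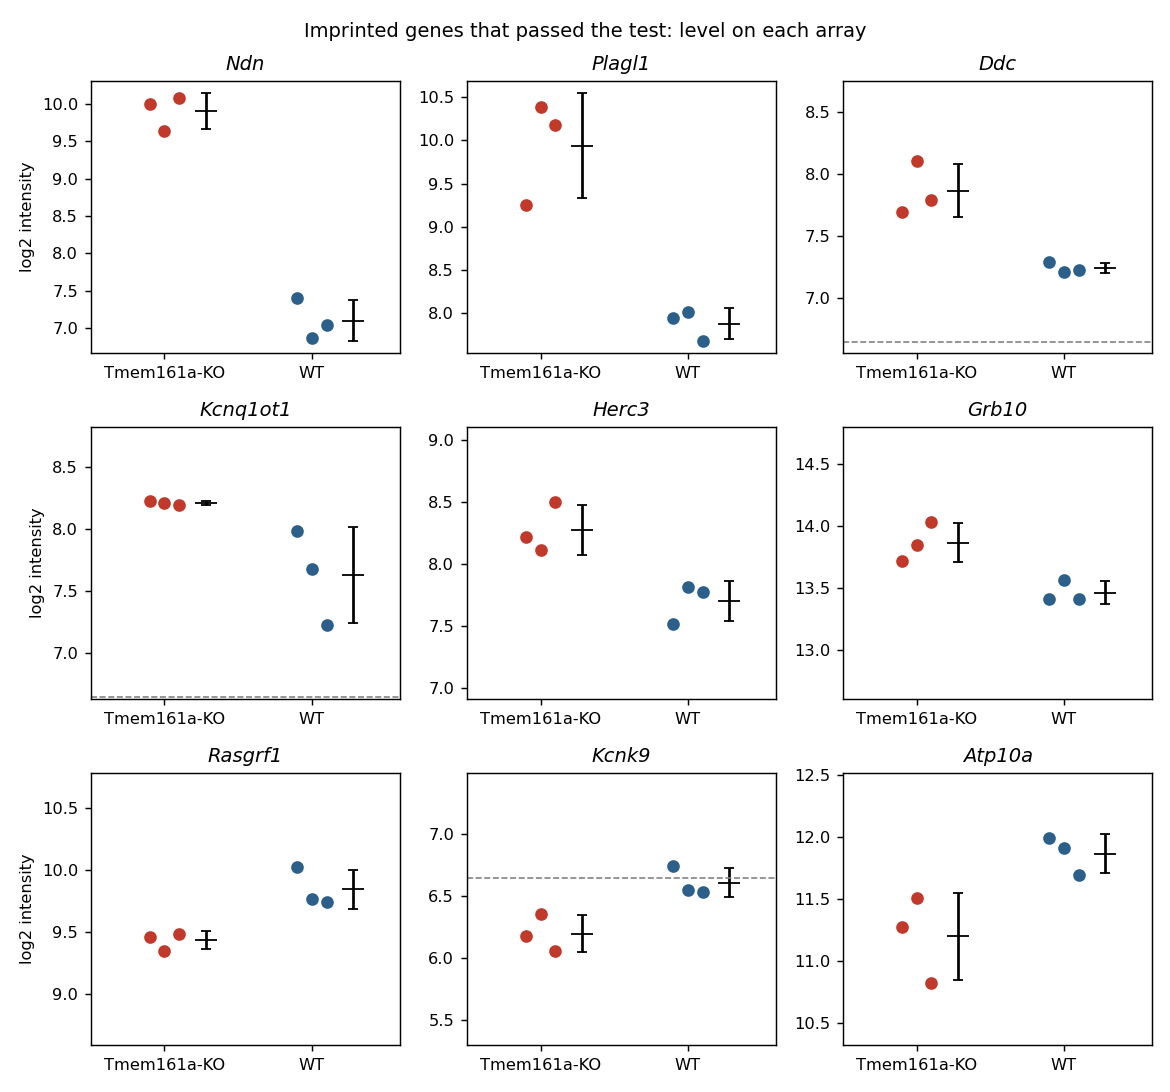
Intensity on a log axis on each of the 3 Tmem161a-KO arrays and the 3 WT arrays for the 9 imprinted genes that passed the test, 1 panel per gene. Points are arrays, the black bar is the mean with the SD of the log2 intensities, and the dashed line is the background level where it falls inside the panel. In every panel the groups are apart, most widely for Ndn and Plagl1 and most narrowly for Grb10.

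The largest difference was in the Prader-Willi/Angelman region of chromosome 7, where paternally expressed genes lie beside the maternally expressed Ube3a and Atp10a. Ndn encodes necdin, a MAGE-family protein of neurons and mesenchymal cells that restrains proliferation and adipocyte differentiation. Its intensities were 1024, 795 and 1084 on the KO arrays, against 168, 116 and 131 on the WT arrays. Every KO array was several times brighter than every WT array, and the WT arrays themselves were above background. Ndn rose 7.0-fold (2.81, SE 0.15), and this call was kept in all 16 alternative analyses. As in any bulk RNA, more cells with a transcript and more of it per cell cannot be told apart.

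The other paternally expressed genes of the region did not pass the test. Magel2, the MAGE-family gene next to Ndn, had intensities of 76.7, 72.9 and 73.1 on the KO arrays and 77.5, 86.7 and 77.1 on the WT arrays, all below background. The 2 groups did not overlap, but the difference was only -0.11 (SE 0.11). Mkrn3, which encodes a ubiquitin ligase that holds back puberty, averaged 69.2 ± 5.05 in KO cells and 69.9 ± 8.56 in WT cells (SD, n = 3 each), also below background. Peg12, a relative of the Wnt regulator Frat, was above background, with 585, 439 and 426 on the KO arrays and 443, 387 and 384 on the WT arrays, and its groups overlapped (0.24, SE 0.14). Among the paternally expressed genes of the region analysed here, the call was made for Ndn alone.

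The 2 maternally expressed genes of the region lay on opposite sides of 0. Atp10a encodes a phospholipid flippase. Its intensities were 2476, 2908 and 1802 on the KO arrays, against 4075, 3860 and 3300 on the WT arrays, so the brightest KO array stayed under the dimmest WT array. Atp10a fell by 0.67 on the log2 scale (SE 0.16), and the call was lost without KO array 3 (-0.48), without WT array 1 (-0.60) and without WT array 2 (-0.64). Ube3a, the ubiquitin ligase gene of Angelman syndrome, which is imprinted in neurons and read from both alleles in most other cells, had 3032, 3610 and 3284 on the KO arrays and 2231, 2733 and 2761 on the WT arrays. Its groups did not overlap, and the difference of 0.37 (SE 0.12) did not pass the test but did so with the arrays centred on their medians (0.43).

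The genes around and inside the region were read as well, to show whether unlisted neighbours carried a call. None of the 7 nearest measured neighbours passed limma's test, and at an unadjusted p under 0.05 the counts were 0 higher and 1 lower with both limma and the methods' t-test. They included the non-coding RNA gene Ipw, which averaged 74.6 in KO cells and 81.3 in WT cells and so lay below background, and the GABA receptor genes Gabrg3 and Gabra5, which lay at 48.4 and 51.2 in KO cells and 48.6 and 51.5 in WT cells.

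**Figure D2:**
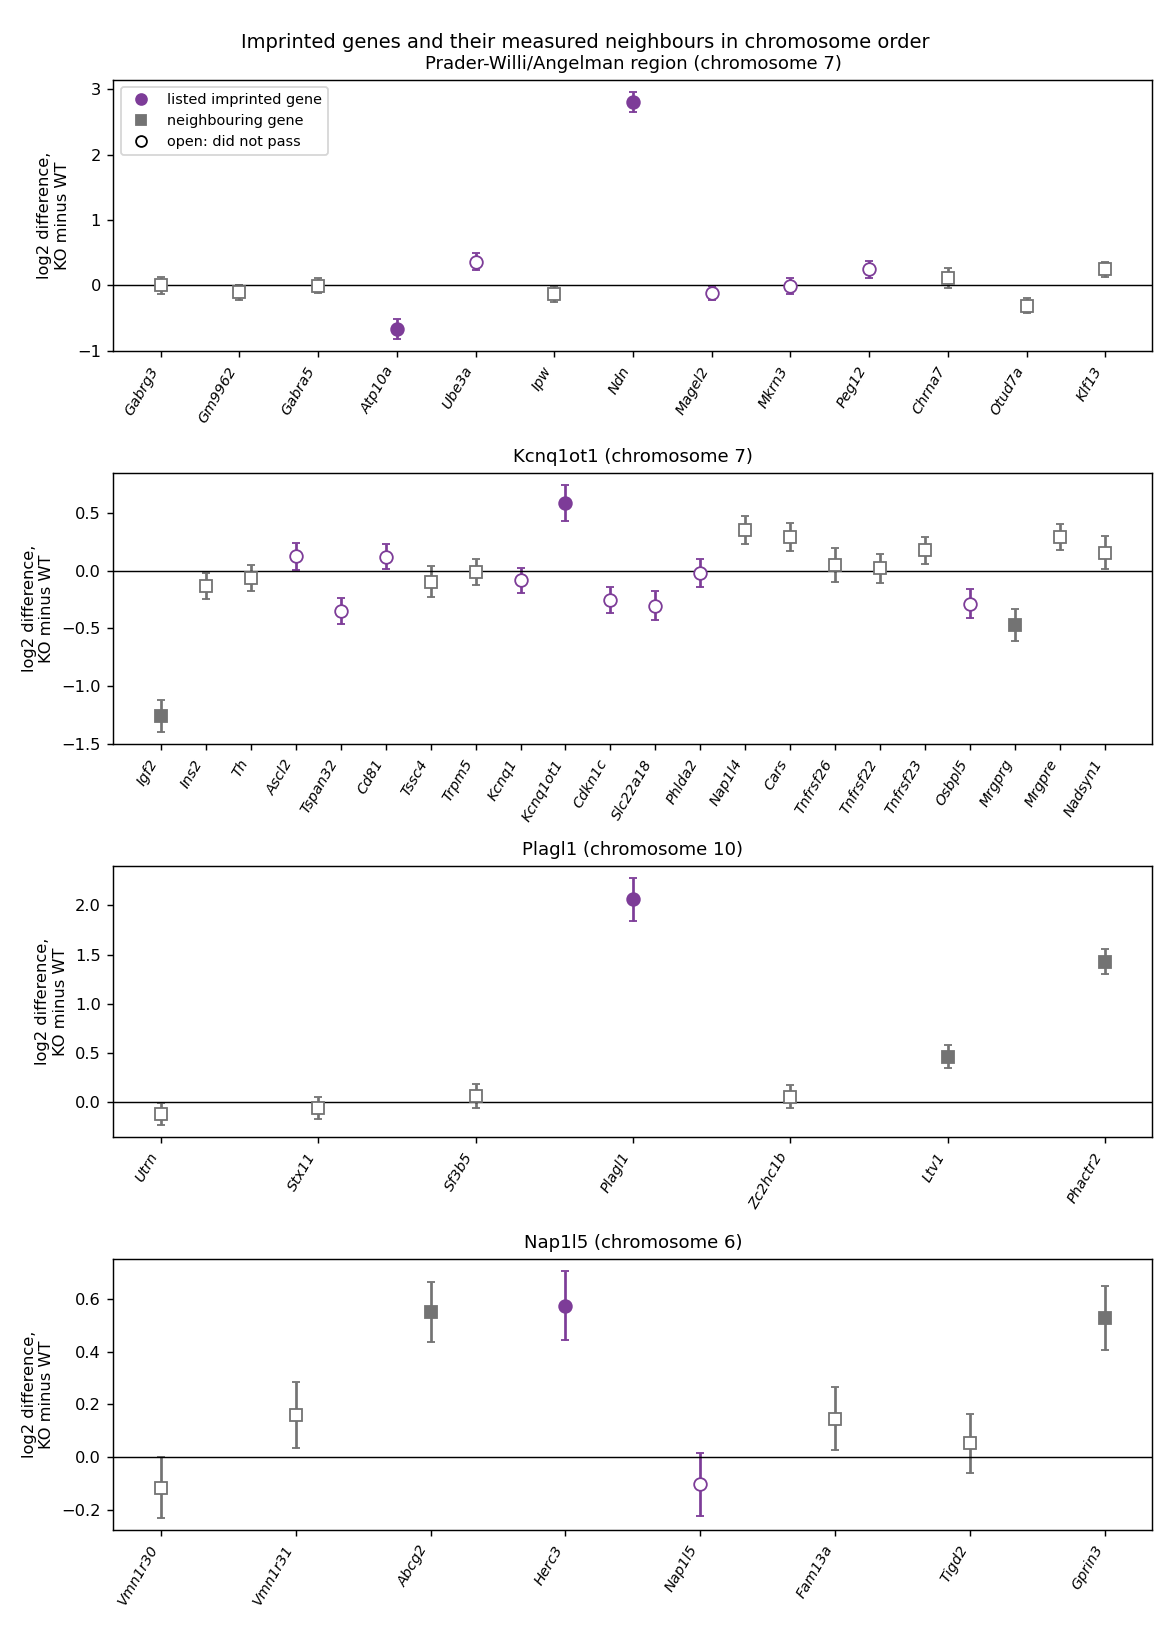
Difference between Tmem161a-KO and WT cells (KO minus WT, log2, with SE bars) for the genes of 4 imprinted loci and their nearest measured neighbours, in order along the chromosome and not to distance. Listed imprinted genes and neighbours are marked apart, and filled points passed the test. In the region of Ndn (2.81) and Atp10a (-0.67) no neighbour was called, whereas Plagl1 (2.06) and Herc3 (0.58) have called neighbours on the same side of 0. The called neighbours of the Kcnq1ot1 cluster, Igf2 (-1.26) and Mrgprg (-0.47), lie on the other side of 0 from Kcnq1ot1 (0.58). Over all 17 loci 13.3% of neighbours were called, against 9.91% of all rows.

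Plagl1 showed the second largest difference of the list. It encodes ZAC1, a paternally expressed zinc finger factor that slows cell growth and regulates other imprinted genes in mice. Its intensities were 610, 1343 and 1156 on the KO arrays, against 246, 259 and 205 on the WT arrays. The groups were apart, yet KO array 1 was much dimmer than the other KO arrays, and the SD of log2 intensities among KO arrays was 0.61, a spread that 99.9% of all rows do not exceed. Plagl1 rose 4.17-fold (2.06, SE 0.22) and kept its call without any 1 array, with differences of 1.84 to 2.41 over all alternatives. It lost the call only in the methods' t-test after adjustment.

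Both neighbours of Plagl1 that passed the test, of 6 measured, were also higher. They are 33.3% of these neighbours, against 13.3% called among the neighbours of all loci and 9.91% of all rows. Phactr2, a regulator of protein phosphatase and actin, had 171, 149 and 144 on the KO arrays and 50.1, 66.9 and 56.2 on the WT arrays, with the WT arrays below background (1.43, SE 0.13). Ltv1, a factor of small ribosomal subunit assembly that is named here after its values were seen, averaged 1613 in KO cells and 1169 in WT cells (0.46, SE 0.12). Zc2hc1b, which lies between Plagl1 and Ltv1 in this order, averaged 43.9 in KO cells and 42.0 in WT cells, below background.

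In the Kcnq1ot1 cluster, the paternally expressed non-coding RNA Kcnq1ot1 silences a set of maternally expressed genes in cis. Kcnq1ot1 had intensities of 301, 296 and 294 on the KO arrays, against 254, 205 and 149 on the WT arrays. The KO arrays were nearly equal, with an SD of 0.02 on the log2 scale, whereas the WT arrays spread over an SD of 0.39, which 98.8% of rows do not exceed. Kcnq1ot1 rose 1.5-fold (0.58, SE 0.16). The call was lost without any KO array (0.57, 0.59 and 0.59 without arrays 1, 2 and 3), without WT array 2 (0.61) and without WT array 3 (0.38), and in the methods' t-test at an unadjusted p under 0.05.

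None of the 8 other genes of this cluster passed limma's test, while at an unadjusted p under 0.05 limma gave 0 higher and 4 lower and the methods' t-test 1 higher and 2 lower. Their median difference was -0.17, with 6 of 8 below 0. After quantile normalization 4 of 8 were below 0 (median -0.09), and with the arrays centred 5 of 8 (median -0.11). Over all 19571 rows limma gave 2453 higher and 2325 lower at an unadjusted p under 0.05. Silencing of these genes by Kcnq1ot1 was not tested. Tspan32, a tetraspanin gene of blood cells, had 190, 185 and 169 on the KO arrays and 234, 245 and 214 on the WT arrays, without overlap (-0.35, SE 0.11). Osbpl5, which encodes a lipid transfer protein, had 577, 492 and 432 on the KO arrays and 596, 594 and 629 on the WT arrays (-0.29, SE 0.12). Cdkn1c, the cyclin-dependent kinase inhibitor p57 and a brake on growth, had 196, 199 and 184 on the KO arrays and 256, 215 and 221 on the WT arrays (-0.25, SE 0.12). In all 3 of these genes each KO array was dimmer than each WT array, and none passed the test. Their arrays are printed because the groups did not overlap, so this is not a result about them. Groups did not overlap in 4 of the 8 genes (50%), in either direction, against 28.9% of all rows and 36.2% of rows with a mean above background.

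In the same cluster Cd81, which encodes a tetraspanin of the cell surface, lay on the other side of 0. It had 160281, 169153 and 168405 on the KO arrays and 155465, 147346 and 155105 on the WT arrays, again without overlap (0.12, SE 0.11), and did not pass the test. Slc22a18, a transporter gene, averaged 89.3 ± 9.37 in KO cells, below background, and 110.5 ± 13.2 in WT cells (-0.31, SE 0.13). The potassium channel gene Kcnq1, in which Kcnq1ot1 starts, averaged 129 ± 2.94 in KO cells and 137 ± 5.78 in WT cells (-0.08). The placental genes Phlda2 (-0.02) and Ascl2 (0.12) lay below background in both groups.

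Around this cluster 13 neighbours were measured, and 2 were lower and 0 higher (15.4% called, against 9.91% of all rows). Igf2, the paternally expressed growth factor controlled by the adjacent H19 imprinting region, had 408, 510 and 490 on the KO arrays, against 922, 1159 and 1309 on the WT arrays, and every WT array was brighter than every KO array (-1.26, SE 0.14). Mrgprg, a receptor gene named here after its values were seen, fell by 0.47 (SE 0.14).

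At the Grb10 locus on chromosome 11, 2 of 3 genes rose and none of 6 measured neighbours passed limma's test (0 higher and 1 lower at an unadjusted p under 0.05, with limma and with the methods' t-test). Ddc, the decarboxylase that makes dopamine and serotonin and is paternally expressed in the heart, had 208, 276 and 222 on the KO arrays, against 156, 148 and 150 on the WT arrays. Ddc rose 1.54-fold (0.62, SE 0.13) and kept the call without any 1 array. Grb10, an adaptor that dampens insulin and growth factor signalling, is maternally expressed in most tissues and paternally in neurons. It had 13453, 14712 and 16741 on the KO arrays and 10889, 12136 and 10876 on the WT arrays, a narrow gap between the groups. Grb10 rose 1.32-fold (0.40, SE 0.12), a call lost without KO arrays 2 (0.41) or 3 (0.32), without WT arrays 1 (0.38), 2 (0.45) or 3 (0.37), and after quantile normalization (0.33). Cobl, an actin nucleator gene, averaged 1199 ± 367 in KO cells and 1243 ± 234 in WT cells (-0.08).

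Herc3, a ubiquitin ligase gene that hosts the paternally expressed Nap1l5 in an intron, had 298, 276 and 362 on the KO arrays, against 183, 224 and 219 on the WT arrays. Herc3 rose 1.49-fold (0.58, SE 0.13), and the call was lost without KO array 3 (0.46) and without WT array 1 (0.48). Nap1l5 itself averaged 60.4 ± 6.45 in KO cells and 64.8 ± 5.10 in WT cells, below background (-0.10). Beside this pair, Abcg2, an efflux transporter gene, averaged 4931 in KO cells and 3375 in WT cells (0.55, SE 0.11), and Gprin3, named here after its values were seen, 442 in KO cells and 307 in WT cells (0.53, SE 0.12). Both passed the test, among 6 neighbours measured (33.3% called, against 9.91% of all rows).

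Rasgrf1 and Kcnk9 were the other genes that fell. Rasgrf1, a paternally expressed activator of Ras whose dose affects growth after birth, had 706, 653 and 718 on the KO arrays, against 1043, 873 and 856 on the WT arrays. It fell by 0.41 (SE 0.12), a call lost without any KO array (-0.43, -0.37 and -0.44 without arrays 1, 2 and 3), without WT array 1 (-0.32) or 2 (-0.45), and with the arrays centred on their medians (-0.35). Kcnk9, a potassium channel gene that is maternally expressed in brain, had 72.4, 81.9 and 66.8 on the KO arrays and 108, 93.7 and 92.8 on the WT arrays. Both group means lay at or below background. Kcnk9 fell by 0.41 (SE 0.12), and the call was lost without KO array 1 (-0.40) or 3 (-0.35), without WT array 1 (-0.34), 2 (-0.44) or 3 (-0.45), and under both other scalings (-0.33 and -0.35). Its neighbour Trappc9, a gene of vesicle transport, averaged 1184 ± 143 in KO cells and 1349 ± 127 in WT cells (-0.19).

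Mest, a paternally expressed gene that is active in mesenchyme and growing fat tissue, did not pass the test. It had 25967, 51468 and 39475 on the KO arrays and 26812, 31703 and 27745 on the WT arrays, so KO array 1 fell below all WT arrays while the other KO arrays exceeded them (0.39, SE 0.19). Without KO array 1 the difference was 0.65 and passed limma's test, and without KO array 2 it was 0.16 and did not. KO array 1 was also the dimmest KO array for Plagl1, and in both genes KO array 2 was the brightest. Copg2, a gene of vesicle coats that overlaps the Mest transcription unit, averaged 5477 ± 731 in KO cells and 5123 ± 190 in WT cells (0.09), and Klf14, a transcription factor gene, lay below background (-0.32, SE 0.13).

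**Figure D3:**
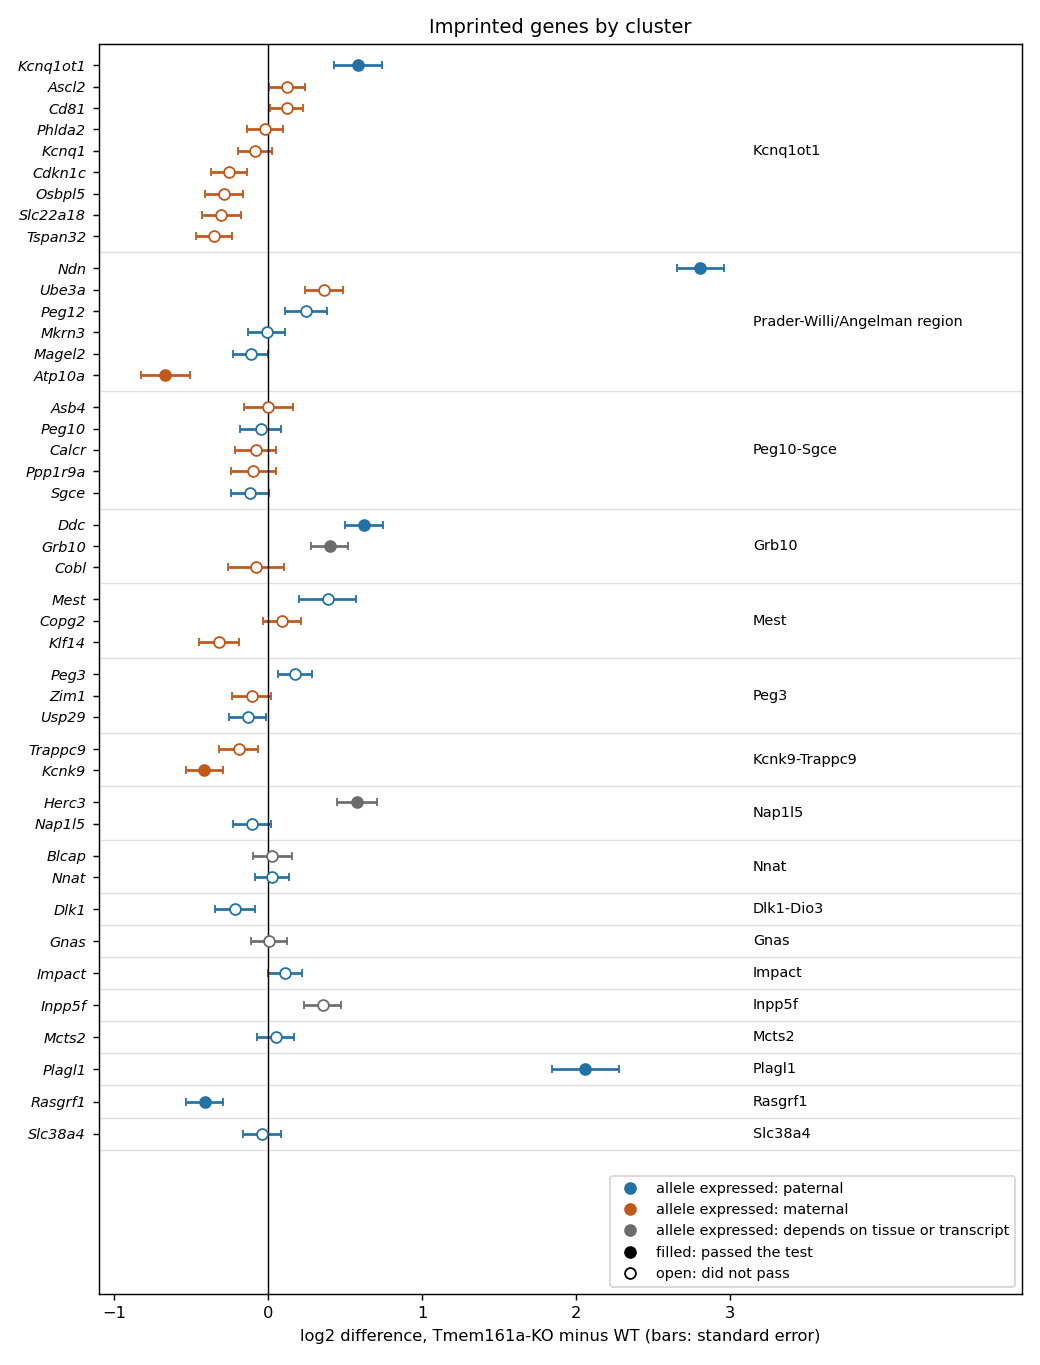
Difference between Tmem161a-KO and WT cells (KO minus WT, log2, with SE bars) for all 43 imprinted genes, grouped by cluster and coloured by the allele that is expressed in the mouse. Filled points passed the test. Ndn and Plagl1 lie far to the right, the other called genes between -0.67 and 0.62, and the larger clusters hold genes on both sides of 0.

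Of the remaining genes, those above background differed little between the groups. Inpp5f, an inositol phosphatase gene with a paternally expressed brain transcript, was the exception, with 293, 256 and 258 on the KO arrays and 211, 232 and 188 on the WT arrays (0.36, SE 0.12). Its groups did not overlap, and it passed the test only after quantile normalization (0.41), with the arrays centred (0.42) and in the methods' t-test without adjustment. Gnas, which encodes the stimulatory G protein subunit of the parathyroid hormone receptor and is imprinted in some tissues, averaged 68289 ± 6104 in KO cells and 68021 ± 4004 in WT cells (0.00, SE 0.12). Impact, a translation regulator gene, averaged 7358 ± 460 in KO cells and 6807 ± 217 in WT cells (0.11). Mcts2, a retrogene copy of the translation factor gene Mcts1, averaged 1241 ± 107 in KO cells and 1201 ± 125 in WT cells (0.05), and probes may not separate it from Mcts1 (-0.01). Sgce, the epsilon-sarcoglycan gene, averaged 1325 ± 180 in KO cells and 1429 ± 68.5 in WT cells (-0.12), and Peg10, a retrotransposon-derived placental gene next to it, 146 ± 19 in KO cells and 151 ± 18.1 in WT cells (-0.05). Blcap (0.03) and Nnat (0.02), neighbours on chromosome 2, differed as little.

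The 15 genes at or below background in both groups have differences that may understate any difference in RNA, and their RNA may also be absent. Besides Magel2, Mkrn3, Kcnk9, Phlda2, Ascl2, Klf14 and Nap1l5 they were Dlk1, a Notch-pathway inhibitor of fat cell formation, the zinc finger genes Peg3 and Zim1, the deubiquitinase gene Usp29, the calcitonin receptor gene Calcr, Asb4, Ppp1r9a and the amino acid transporter gene Slc38a4. Their differences lay between -0.41 (Kcnk9) and 0.18 (Peg3). Dlk1, which preadipocytes and immature mesenchymal cells can express, averaged 82.9 ± 9.97 in KO cells and 96.1 ± 10.2 in WT cells.

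**Figure D4:**
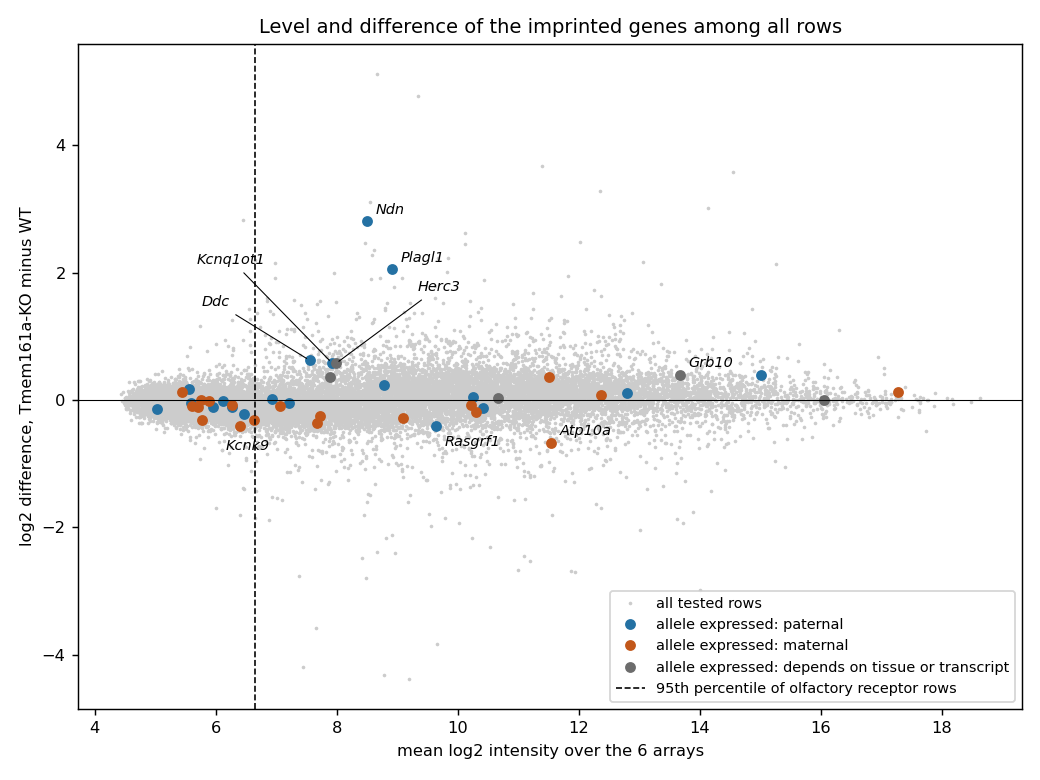
Mean log2 intensity over all 6 arrays (horizontal axis) against the difference between Tmem161a-KO and WT cells (KO minus WT, log2, vertical axis), with all tested rows in grey and the imprinted genes in colour. The dashed line is the background level at 6.65. Ndn and Plagl1 lie above the other imprinted genes, and the genes left of the line lie between -0.41 and 0.18.

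By parental allele, the 19 paternally expressed genes held 4 that rose (Ndn, Plagl1, Ddc and Kcnq1ot1) and 1 that fell (Rasgrf1), or 21.1% higher and 5.26% lower against 5.73% and 4.17% of all rows, with a median difference of 0.02. The 19 maternally expressed genes held 0 that rose and 2 that fell (Atp10a and Kcnk9), with a median of -0.10. Their called share was close to the 9.91% of all rows, but all of it was lower, against 4.17% lower over all rows. At an unadjusted p under 0.05 limma gave 1 higher and 7 lower maternally expressed genes and the methods' t-test 2 higher and 4 lower. At that threshold limma gave 2453 higher and 2325 lower over all 19571 rows. Of the maternally expressed genes 14 lay below 0, and 13 did so after quantile normalization or with the arrays centred (medians -0.06 and -0.04). The 5 genes whose expressed allele depends on tissue or transcript held 2 that rose (Grb10 and Herc3) and had a median of 0.36, with all 5 above 0, although 2 of them were below 0 after quantile normalization. The further imprinted genes described below were not grouped by allele. Of those, 0 rose and 5 fell, among them the paternally expressed Igf2 (-1.26). Ddc was counted as paternally expressed and Kcnk9 and Ube3a as maternally expressed, although their imprinting is given above for heart, brain or neurons. Which alleles these cells read was not measured, so the grouping may not hold in them. The counts by allele describe a list chosen with the values known, and no difference between the allele groups was tested.

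Over all 17 loci, 120 neighbouring genes were measured, taken as the nearest 3 on each side and those between listed genes. Of them 7 were higher and 9 lower (13.3%, against 9.91% of all rows), with a median of 0.03. The largest difference among them was that of Dio3, the thyroid hormone-inactivating deiodinase, itself imprinted and at the end of the Dlk1-Dio3 cluster. It had 795, 2515 and 1807 on the KO arrays, against 7982, 13944 and 9005 on the WT arrays, far apart despite the spread in each group (-2.71, SE 0.30). Near Mest, the non-coding RNA gene Lncpint averaged 912 in KO cells and 1586 in WT cells (-0.81). Samd9l, an interferon-induced gene beside the Peg10-Sgce cluster, averaged 1137 in KO cells and 1876 in WT cells (-0.75). Amigo2, an adhesion gene near Slc38a4, averaged 149 in KO cells and 255 in WT cells (-0.78), and Bcl2l1, an anti-apoptotic gene near Mcts2, 1548 in KO cells and 2372 in WT cells (-0.62). All 4 passed the test while no listed gene of their loci did, and they are named for the size of their differences. Called higher at loci without a called listed gene were Ppp2r5c near Dlk1 (0.53), Tial1 near Inpp5f (0.46) and Cep41 near Mest (0.46).

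A further list of 56 imprinted genes outside the 46 had 39 members analysed. Of these 0 rose and 5 fell (12.8%, against 9.91% of all rows called and 4.17% lower), with a median of -0.10. At an unadjusted p under 0.05 limma gave 1 higher and 12 lower and the methods' t-test 1 higher and 9 lower. At that threshold limma gave 2453 higher and 2325 lower over all 19571 rows. In the further list Dio3 and Igf2, described above, fell most. Jade1, a chromatin scaffold gene, averaged 1004 ± 77.1 in KO cells and 1841 ± 480 in WT cells (-0.84, SE 0.17). Pde10a, a phosphodiesterase gene, averaged 344 ± 24.3 in KO cells and 534 ± 76.9 in WT cells (-0.63, SE 0.13), and it lies on chromosome 17, where 8.51% of rows fell. Sfmbt2, a Polycomb-related gene, fell by 0.61 (SE 0.13) and is named as the last of the 5 after its values were seen.

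Among 28 genes that set, keep or remove imprints, 2 rose and 0 fell (7.14% called, below the 9.91% of all rows), with a median of 0.12. At an unadjusted p under 0.05 limma gave 7 higher and 0 lower and the methods' t-test 6 higher and 0 lower. Over all 19571 rows that threshold gave 2453 higher and 2325 lower with limma and 2038 higher and 1878 lower with the methods' t-test. Tet1, which oxidizes methylated cytosine, had 168, 127 and 155 on the KO arrays and 95.2, 75.6 and 85.4 on the WT arrays, the WT arrays lying below background (0.81, SE 0.13). Hells, a chromatin remodeller needed for DNA methylation, had 2781, 2109 and 3162 on the KO arrays and 1577, 1881 and 1768 on the WT arrays, without overlap (0.61, SE 0.14). Zfp57 and Trim28, the zinc finger factor and its partner that keep methylation at imprinting control regions, did not pass the test and are named after their values were seen. Zfp57 had 1653, 1356 and 1686 on the KO arrays and 949, 865 and 1458 on the WT arrays, which overlapped (0.55, SE 0.17). The maintenance methyltransferase gene Dnmt1 differed by 0.10 (SE 0.13).

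Of 13 close relatives of the listed genes, whose probes could in principle share sequence with them, only Grb14 passed the test. It fell by 1.12 (SE 0.12), averaging 65.6 in KO cells and 142 in WT cells, while Grb10 rose. Markers of other cell types were read beside the listed genes. Of 8 neuronal markers 4 lay at or below background in both groups, Tubb3 rose (1.28), Map2 fell by 0.83, and 7 of the 8 differences were below 0 (median -0.13). The summed intensity was 4100 to 5740 on the KO arrays and 3141 to 3515 on the WT arrays, and Tubb3 alone averaged 3748 in KO cells and 1521 in WT cells. Of 8 adipocyte markers 6 lay at or below background in both groups. Lpl and Lep fell (25% called, against 9.91% of all rows), and Lep was among those below background, averaging 44.9 in KO cells and 60.7 in WT cells. The sum of the adipocyte markers was 1060 to 1120 on the KO arrays and 1227 to 1293 on the WT arrays. Of 7 chondrocyte markers 6 had a difference below 0, and Col2a1 fell by 0.82. The sum was 11069 to 14549 on the KO arrays and 9676 to 12629 on the WT arrays. Most of it came from Sox9, the marker above 0, which averaged 12143 in KO cells and 9094 in WT cells. Sox9 did not pass the test (0.41, SE 0.15). Of 6 myogenic markers 4 lay at or below background, 5 differences were below 0 and none passed limma's test, with none at an unadjusted p under 0.05 either, and the sum was 584 to 664 on the KO arrays and 701 to 762 on the WT arrays. All 5 macrophage markers lay below background. No marker was listed at 0. The part of these markers in the differences of the imprinted genes was not tested. Sp7, the osteoblast factor osterix, rose (2.27, SE 0.13), and the other 10 osteoblast markers did not pass the test.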

How the data were processed

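Clariom S mouse arrays of 3 Tmem161a-KO and 3 WT samples of MC3T3-e1 cells were analysed. The values deposited by the authors are intensities on a linear scale, normalized with GeneSpring and analysed by them in Transcriptome Analysis Console. Not given in the sources used here: background correction, probe summarization and the array's genome build. Coordinates of array rows are therefore not printed. Authors' own comparisons were not used, and the number of columns set aside was 0.

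Intensities were put on the log2 scale with no pseudocount and fitted in R 4.3.3 with lmFit and eBayes of limma 3.58.1 (Benjamini-Hochberg, adjusted p under 0.05) over the 19571 of 22205 rows with a gene symbol. The fit was tested on simulated data. The platform annotation gave symbols. A RefSeq mouse table gave chromosomes and gene order, and its promoter table (GRCm38.p6) was matched by symbol. With 3 arrays per group an exact two-sided permutation test cannot go below 0.1, and the number of arrays limits the precision.

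The members and all lists were chosen with earlier results of these data known. Values per array are printed for every called member and for the 6 uncalled ones, brighter than background and without overlap, that changed most. Up to 4 called genes of other lists and 8 called neighbours are named, and further genes were chosen after their values were seen. Alternatives were quantile normalization, median centring, array weights, robust eBayes with an intensity trend, the methods' t-test with and without adjustment, only bright rows, all rows, a replicate block, a pseudocount of 16 and leaving out each array.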

Additional observations from a re-analysis of the deposited data

How the results depend on the processing

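The number of arrays limits these results. Ndn was called in all 16 alternatives, and Plagl1 and Ddc in 15 of 16. Herc3 was called in 13, Atp10a in 12, Grb10, Kcnq1ot1 and Rasgrf1 in 9 each, and Kcnk9 in 6 of the 15 that tested it. No listed gene that passed the test changed direction. With the arrays centred on their medians 8 imprinted genes were higher and 1 was lower. After quantile normalization 8 imprinted genes were called, with Grb10 and Kcnk9 lost and Inpp5f gained. The methods' t-test without adjustment called 2038 genes higher and 1878 lower, with 9 and 5 imprinted genes, and after Benjamini-Hochberg adjustment 114 and 76, with 1 and 0. Leaving out 1 array gave 729 to 965 higher and 497 to 703 lower genes. Among the imprinted genes it gave 3 to 6 higher and 0 to 2 lower, with a median difference of -0.05 to 0.02. The fewest, 3 higher and 0 lower, came without KO replicate 3, and 4 higher and 0 lower came without WT replicate 1 or WT replicate 2. Without WT replicate 3 or KO replicate 2 there were 4 higher and 2 lower, and without KO replicate 1 6 higher and 1 lower. Among uncalled genes, Mest was called without KO replicate 1, Inpp5f after quantile normalization or centring, Ube3a after centring, and Tspan32 when only bright rows were tested.

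Samples with the same replicate number correlated in their deviations at r = 0.07, 0.09 and 0.02, and samples with different numbers at r = -0.11 to 0.04. These values do not decide whether the samples were paired, and the numbers were not taken as pairs in the main fit. With the replicate block the same 9 imprinted genes were called, 6 higher and 3 lower, with 1198 higher and 853 lower over all rows.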
